A study of Schmidtea mediterranea with 48 samples.

Results

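RNA interference (RNAi) against sox8 was compared with the non-targeting control unc22 in planarians on day 6, the first of the days sampled. The comparison used 8 of the study's 48 libraries, 4 after sox8 RNAi and 4 after unc22 RNAi, chosen by their labels. All worms were asexual Schmidtea mediterranea of the clonal line CIW4, and RNA was taken from whole worms and made into TruSeq libraries. Every group, the control included, was fed bacteria of strain HT115 expressing double-stranded RNA, mixed into calf liver paste, given every 3 days. Libraries of the same design from days 12 and 18, and from worms fed double-stranded RNA against zfp1 or pax5, are read below to show where the sox8 response on day 6 differs. All 48 libraries were also in the model that set the spread behind each p-value. Of 28413 features in the table, 22667 (79.8%) had a mean of at least 0.5 RPKM over the 48 libraries and were tested. RPKM counts reads relative to feature length and library depth, so levels of different features can be set side by side. At the filter, SMED30001803 lay just inside with a mean of 0.500051 RPKM and SMED30027365 just outside with 0.499978 RPKM.

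Planarians replace their cells throughout life from neoblasts, the dividing stem cells of the body, and fed double-stranded RNA lowers a target's messenger RNA throughout the animal. Sox genes encode transcription factors that bind DNA through an HMG box, and vertebrate Sox8 belongs to the SoxE family, which acts in the neural crest and the gonads. In planarians zfp1, a zinc finger gene, is known for its role in the neoblasts that give rise to the epidermis. Pax5 encodes a paired-box transcription factor that in vertebrates is known for B cell development. The gene unc22 encodes a giant muscle protein in the nematode Caenorhabditis elegans.

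Depth was 13424643, 6894458, 26514649 and 23051740 reads in sox8 replicates 1 to 4, and 29072387, 24383755, 10258492 and 24378926 reads in unc22 replicates 1 to 4. Replicate 2 of sox8 was the shallowest of all 48 libraries. The deposited RPKM values also implied a scaling factor on the depth of each library. It was 1.005, 1.007, 0.932 and 1.051 in sox8 replicates 1 to 4. In unc22 replicates 1 to 4 it was 1.061, 1.043, 1.027 and 1.007. The part of this factor in the small changes was not tested. The table names its features by SMED30 identifiers alone, so the level of sox8 itself and the markers of planarian cell types were not analysed here, and the knockdown was not checked on its target. What a replicate was is not stated, so p-values measure only how much these libraries vary, and part of that may be technical. In RNA from whole worms, fewer cells of a type and less RNA per cell cannot be told apart.

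The large changes on day 6 after sox8 RNAi were falls. Of the 22667 features, 29 (0.128%) were called at least 2-fold lower than in unc22 libraries and 1 (0.00441%) at least 2-fold higher. Called means an adjusted p under 0.05 by limma's moderated test on log2(RPKM + 0.5) with Benjamini-Hochberg adjustment over all features tested. The spread came from all 48 libraries. With only the groups compared in the model, 20 features, all among the 29, were called at least 2-fold lower. All log2 changes below are on that scale, which understates changes of low features. The 29 features included some of the more abundant transcripts of the worm, 9 of them at 100 RPKM or more in the control. Together the 29 took 1.04% ± 0.0573 (SD, n = 4) of summed RPKM in the control and 0.101% ± 0.0186 (SD, n = 4) after sox8 RNAi, values that describe the features chosen by this contrast. In 28 of the 29, all 4 sox8 libraries lay below all 4 unc22 libraries, against 774 such features (3.41%) among all tested. The 29 were chosen on these same libraries, so the separation adds no support of its own. Without sox8 replicate 4 the number that fell at least 2-fold was 83, all 29 included, and without any other single library it was 23 to 35.

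SMED30008921 had the largest fall on the log2(RPKM + 0.5) scale. It stood at 56.65, 59.1, 60.6 and 65.2 RPKM in unc22 replicates 1 to 4 and at 1.76, 2.28, 2.64 and 3.02 RPKM in sox8 replicates 1 to 4. The sox8 mean was 4.01% of the control mean, and the log2 change was -4.40 (SE 0.30, limma adjusted p = 2.60e-14). SMED30031990, at 1588 bases the longest of the 29, measured 268, 284, 278 and 316 RPKM in the control and 11.6, 11.9, 21.9 and 11.3 RPKM after sox8 RNAi. Replicate 3 stood above the other sox8 libraries, yet far below every control, and the change was -4.34 (SE 0.25, limma adjusted p = 1.23e-15).

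SMED30002134 and SMED30014876 were the most abundant of the 29 in the control. SMED30002134 stood at 1988, 2030, 2003 and 2253 RPKM in unc22 libraries and at 96.0, 111, 194 and 103 RPKM in sox8 libraries. Again sox8 replicate 3 was the highest of its group, and the change was -4.09 (SE 0.25, limma adjusted p = 9.12e-15). For SMED30014876 the control levels were 1769, 1833, 1791 and 2097 RPKM and the sox8 levels 140, 184, 224 and 136 RPKM. This feature kept 9.13% of its control level, with a change of -3.48 (SE 0.23, limma adjusted p = 4.15e-14).

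Further abundant features fell in the same range. SMED30025741 was at 794, 816, 790 and 885 RPKM in unc22 libraries and at 35.5, 46.7, 74.4 and 36.7 RPKM in sox8 libraries, a change of -4.14 (SE 0.27). SMED30009302 went from 357, 376, 365 and 418 RPKM to 35.7, 44.8, 43.2 and 24.6 RPKM, a change of -3.37 (SE 0.17). The lowest sox8 library was here replicate 4, so the order of libraries was not the same for every feature. SMED30035904 measured 508, 540, 494 and 576 RPKM in the control against 50.4, 40.8, 85.3 and 44.8 RPKM, a change of -3.31 (SE 0.27). The groups lay apart in all of these, and limma's adjusted p was at most 1.06e-11.

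SMED30011419 and SMED30020396 kept more of their signal. SMED30011419 stood at 961, 992, 995 and 1118 RPKM in unc22 libraries and at 129, 143, 202 and 132 RPKM in sox8 libraries, 14.9% of the control mean (log2 change -2.77, SE 0.20). SMED30020396 stood at 626, 681, 609 and 739 RPKM against 94.2, 91.8, 146 and 84.4 RPKM, 15.7% of the control mean (log2 change -2.70, SE 0.30). In both, sox8 replicate 3 was the highest of its group and unc22 replicate 4 the highest of the controls.

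Features of low level also fell far. SMED30026114 went from 29.1, 33.4, 29.0 and 35.8 RPKM to 2.60, 2.52, 4.64 and 2.09 RPKM (log2 change -3.27, SE 0.25, limma adjusted p = 4.65e-13). SMED30024144, a feature of 467 bases, went from 13.5, 16.8, 16.3 and 15.6 RPKM to 0.793, 0.617, 0.346 and 0.619 RPKM (log2 change -3.89, SE 0.36, limma adjusted p = 2.15e-10). Its sox8 levels rested on 5, 2, 4 and 7 reads, and it kept 3.82% of its control level. SMED30031649 went from 5.24, 5.86, 7.86 and 5.74 RPKM to 0.153, 0.596, 0.419 and 0.256 RPKM, on 1, 2, 5 and 3 reads (log2 change -2.98, SE 0.31, limma adjusted p = 4.07e-09). At these depths the sox8 levels are known to a few reads only, although no sox8 library came near a control.

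**Figure D1:**
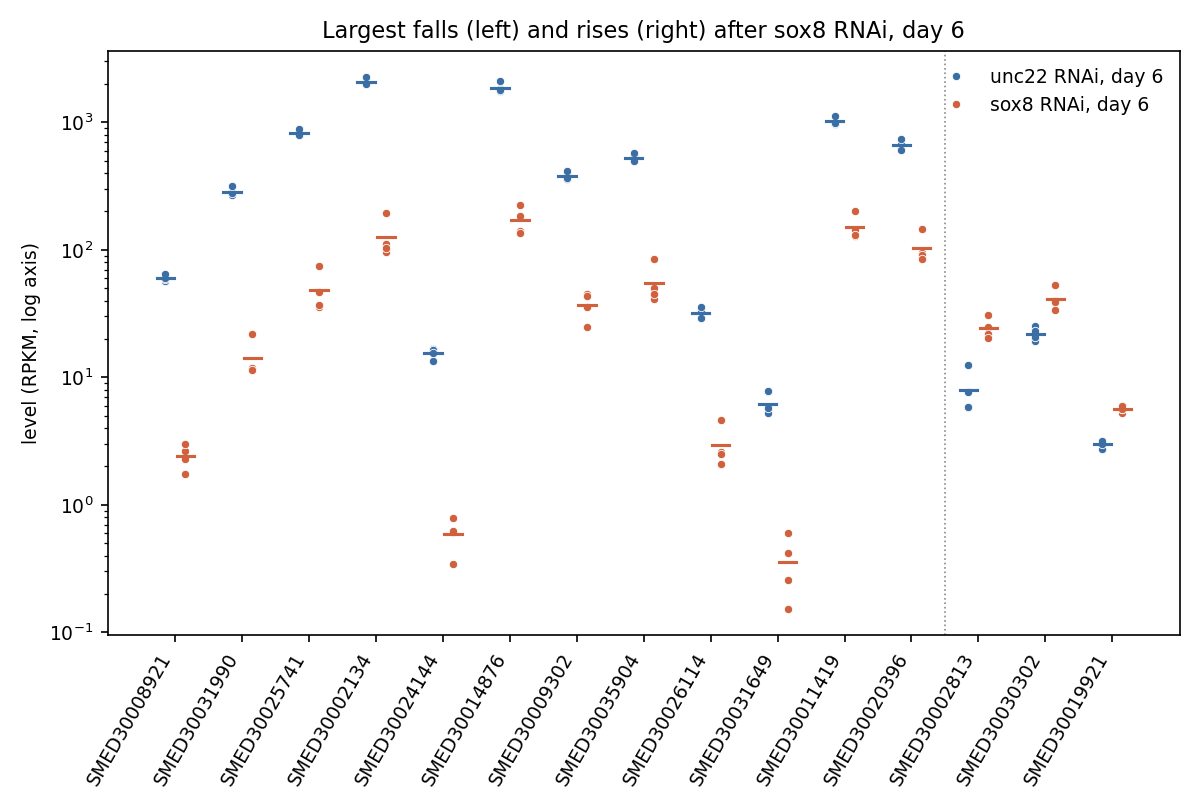
Level in each day 6 library (RPKM, log axis) of the 12 largest falls and, right of the dotted line, the 3 largest rises; points are libraries, 4 per group, and bars are group means. In every one of the 15 features, which were chosen on these same libraries, the 4 sox8 libraries lie apart from the 4 unc22 libraries.

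SMED30035247 was all but missing from the sox8 libraries. It had 30, 21, 9 and 22 reads in unc22 replicates 1 to 4, or 1.36 RPKM ± 0.0979 (SD, n = 4), and a single read in sox8 replicate 1 with none in the other 3. The ratio of read rates, sox8 to unc22, was 0.0161, with an exact 95% interval of 0.000402 to 0.0920 that covers counting error only. SMED30016772 was nearly as low, with 2, 1, 3 and 1 reads in sox8 libraries against 50, 49, 17 and 46 in the control (log2 change -1.96, SE 0.14, limma adjusted p = 3.59e-14). SMED30008505 went from 32.2 RPKM ± 0.728 to 5.54 ± 1.93 (SD, n = 4 each), a change of -2.49 (SE 0.18). SMED30002242 went from 27.2 ± 1.07 to 9.95 ± 1.23 RPKM (SD, n = 4 each) and kept 36.6% of its control level.

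The log2 changes behind the choice of the 29 held no library of days 12 or 18, though the filter and the spread did. Most of the 29 were lower on those days too. On day 12, where 55 features (0.243%) were called lower, 21 of the 29 were among them. On day 18, where 160 (0.706%) were called lower, 21 of the 29 were called as well. Over all 29 the median log2 change was -1.82 on day 6, -1.67 on day 12 and -1.79 on day 18. Medians over all features tested were 0.02, 0.00 and 0.01. Both days called 20 of the 29. For these 20 the medians were -2.87, -2.97 and -3.21, low on the later days by choice, since a call on both was required. Their sox8 level on day 6 was 3.82% to 36.6% of the control, with a median of 10.1%, and 10 of them were under 10%. The control itself was not constant: in 18 of the 20, the unc22 mean was lower on day 18 than on day 6, with a median over the 20 of 58.3% of the day 6 level.

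Individual features were already far below the control on day 6, the first day sampled. SMED30009302 changed by -3.37, -3.15 and -3.49 on days 6, 12 and 18, and SMED30035904 by -3.31, -3.28 and -3.35. Over the same days SMED30025741 changed by -4.14, -5.21 and -5.40, and SMED30002134 by -4.09, -4.83 and -5.28. The test of the difference between day 12 and day 6 called none of the 22667 features (0%), while 1262 had an unadjusted p under 0.05, and voom on the recovered reads also called 0. Neither it nor the test of day 18 against day 6 called any of the 20. On simulated data these tests recovered only 38.8% and 40.3% of 2-fold differences, so an uncalled difference does not show an unchanged effect. The change was larger on day 18 than on day 6 in 15 of the 20 and larger on day 12 in 11, differences that these tests did not call.

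**Figure D2:**
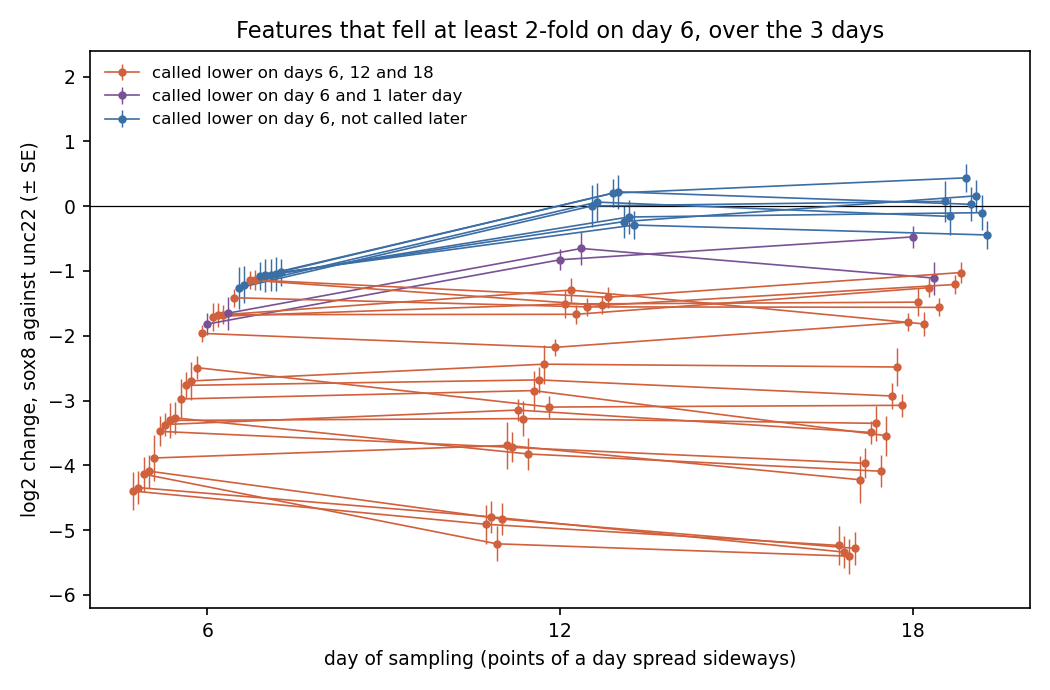
Log2 change of sox8 against unc22 (vertical axis, ± SE) on days 6, 12 and 18 for the 29 day 6 falls of at least 2-fold, each day with its own 4 libraries per group. The 20 of the 29 called lower on all 3 days are low on each by that choice, while the 7 called on day 6 alone lie between -0.44 and 0.44 on day 18.

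Of the remaining 9 falls, 7 were called on neither later day, and these were short or rested on few reads. SMED30001815, SMED30007684, SMED30023556, SMED30009048, SMED30028038, SMED30033255 and SMED30022164 were 324 to 594 bases long, and 6 of the 7 stood under 4 RPKM in the control. The shallowest library, sox8 replicate 2, was the lowest of its group in 5 of them and had 0 reads in 4. SMED30001815 is an example, with 3.96, 3.52, 3.09 and 3.15 RPKM in unc22 libraries and 1.96, 0, 1.89 and 1.93 RPKM in sox8 libraries. The day 6 change was -1.26 (SE 0.32, limma adjusted p = 0.0458), against 0.00 on day 12 and 0.07 on day 18, and without sox8 replicate 2 it was -0.69 and not called (limma adjusted p = 0.144). SMED30009048 was the abundant exception, with 122, 154, 133 and 388 RPKM in unc22 and 90.8, 81.5, 90.8 and 74.0 RPKM in sox8 libraries. Without unc22 replicate 4 its change of -1.07 became -0.69 and was not called (limma adjusted p = 0.0883). Over the 7, limma's adjusted p on day 6 was 0.00628 to 0.0458, and the changes were -0.29 to 0.22 on day 12. A missing later call is not a test between days. The direct test of day 12 against day 6 called none of the 7, and that of day 18 only SMED30023556 (limma adjusted p = 0.0326). The other 2 were called on one later day: SMED30035247 on day 12 (-0.83) and SMED30010647 on day 18 (-1.11).

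Rises called on day 6 were small, and their number rested on single libraries. At any size, 175 features (0.772%) were called, 85 higher (0.375%) and 90 lower (0.397%). The 85 rises had a median log2 change of 0.23 and a median control level of 25.7 RPKM. In 65 of them all 4 sox8 libraries lay above all 4 controls, against 702 such features (3.10%) of all tested. The rises were chosen on these same libraries, so this too adds no support of its own. With quantile normalization the calls were 31 higher and 68 lower, and with cyclic loess 21 higher and 71 lower, so the balance of the small changes moved with the scaling. Leaving out sox8 replicates 1 to 4 in turn gave 82, 381, 43 and 1144 calls, and doing so for unc22 replicates 1 to 4 gave 53, 46, 55 and 431. The rises alone numbered 34, 279, 5 and 588 without sox8 replicates 1 to 4 in turn and 15, 17, 16 and 239 without each unc22 library. With only the 2 groups compared in the model 6 rises were called, and at equal depth 14.

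SMED30002813 was the one rise of at least 2-fold. It stood at 5.88, 5.82, 12.6 and 7.61 RPKM in unc22 libraries and at 24.8, 21.9, 31.0 and 20.4 RPKM in sox8 libraries, a change of 1.61 (SE 0.34, limma adjusted p = 0.0155). It was not called without sox8 replicate 3 (0.0897), unc22 replicate 1 (0.0664) or unc22 replicate 2 (0.0811), and its change was 0.59 on day 12 and -0.22 on day 18, neither called. SMED30030302 went from 19.2, 20.5, 25.3 and 23.0 RPKM to 39.5, 39.0, 53.1 and 33.6 RPKM, a change of 0.88 (SE 0.20, limma adjusted p = 0.0270). Leaving out sox8 replicate 1 or 3, or unc22 replicate 1 or 2, ended that call, with adjusted p from 0.0589 to 0.165.

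SMED30019921 differed from both in that it was also called on the later days. It stood at 2.74, 3.08, 2.99 and 3.19 RPKM in unc22 libraries and at 5.23, 5.63, 5.66 and 5.93 RPKM in sox8 libraries, with little spread in either group (log2 change 0.81, SE 0.19, limma adjusted p = 0.0294). On day 12 the change was 1.09 and on day 18 it was 0.89, both called by limma (adjusted p = 0.000878 and 0.00748). On day 6 alone the call was lost without sox8 replicate 1 or 3 or without unc22 replicate 1, 2 or 3 (limma adjusted p from 0.0589 to 0.108), and with a pseudocount of 0.1 (0.107). SMED30021335 rose from 4.25 ± 0.342 to 6.84 ± 0.485 RPKM on day 6 (SD, n = 4 each; log2 change 0.63, limma adjusted p = 0.00107) and by 0.70 on day 12. SMED30010551 rose by 0.50 on day 6 and by 0.56 on day 12, and changed by 0.13 on day 18, not called. Its day 6 call was lost under 7 of 19 alternatives, among them leaving out sox8 replicate 3 (limma adjusted p = 0.179). SMED30013172 rose by 0.59 on day 6 and changed by -0.05 and -0.21 on days 12 and 18, neither called, and its day 6 call was lost without unc22 replicate 1 (limma adjusted p = 0.0524). The most abundant riser, SMED30035193, went from 1549 ± 50.8 to 1758 ± 116 RPKM (SD, n = 4 each), with overlapping libraries, and was not called under 9 of 20 alternatives. Of the 85 rises, 4 were called higher on day 12, where 10 features (0.0441%) were, and 2 on day 18, where 13 (0.0574%) were, with medians of 0.07 and 0.06. SMED30017339 had the lowest adjusted p of the 85. It rose by 0.29 on day 6 (limma adjusted p = 2.77e-07), by 0.48 on day 12 and by 0.56 on day 18, all called. The difference between days 18 and 6 was called too (limma adjusted p = 0.0170). On day 6 it was also called higher after zfp1 RNAi (0.20) and pax5 RNAi (0.29). Its call was not examined under the alternatives.

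**Figure D3:**
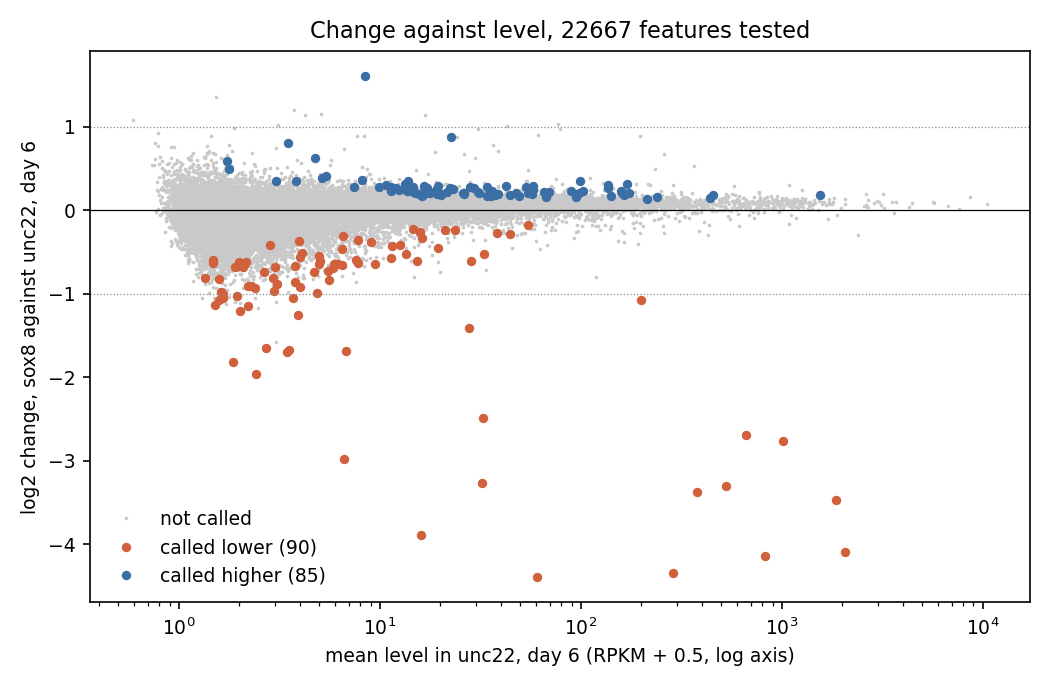
Log2 change of sox8 against unc22 on day 6 (vertical axis) by mean control level (RPKM + 0.5, log axis) for the 22667 features tested, with the 90 called lower in red, the 85 called higher in blue and dotted lines at 2-fold. The red points below -2 spread over the whole range of levels from about 6 to over 2000 RPKM, while all but 1 of the blue points lie under the upper line.

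The 61 falls of less than 2-fold had a median log2 change of -0.63, which was -0.16 in the day 12 libraries and -0.12 in those of day 18. The later days called 7 and 5 of them lower. SMED30031107 was called on all 3 days, with changes of -0.99, -0.91 and -1.31 and a day 6 level of 2.00 ± 0.644 RPKM after sox8 RNAi against 4.36 ± 0.207 in the control (SD, n = 4 each). SMED30029498 was called on all 3 as well, with changes of -0.92, -1.46 and -1.24, but its day 6 call was lost under 10 of 19 alternatives, among them leaving out sox8 replicate 2 (limma adjusted p = 0.0938). SMED30028655, by contrast, changed by -0.86 on day 6 (limma adjusted p = 0.0155) and by 0.08 and -0.09 on days 12 and 18, neither called, and its day 6 call was lost under 5 of 20 alternatives, among them leaving out sox8 replicate 3 (0.0961). An unadjusted p under 0.05 was found for 4152 features (18.3%) on day 6, against 6.28% on day 12 and 8.60% on day 18.

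Small changes on day 6 went together with feature length and with single libraries. The median log2 change was -0.07 for features of up to 500 bases, 0.02 for 500 to 1000, 0.05 for 1000 to 2000, 0.02 for 2000 to 4000 and -0.03 above 4000 bases. On day 12 the same medians ran from -0.02 to 0.01 and on day 18 from -0.03 to 0.02. None of the 85 rises was shorter than 508 or longer than 3825 bases, while 22 of the 90 falls were of at most 500 bases and 9 of over 4000, classes that held 4113 and 936 of the 22667 features tested. In 71 of the 85 rises sox8 replicate 3 was the highest of its group, against 7985 of all 22667 features, and in 39 of the 61 smaller falls sox8 replicate 4 was the highest, against 4945 of all. With a correction for length, added after seeing the data, 178 features were called and 23 of the falls of at least 2-fold were found, all among the 29. The labels give no sequencing batch. The part of length or of these libraries in the small changes was not tested.

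**Figure D4:**
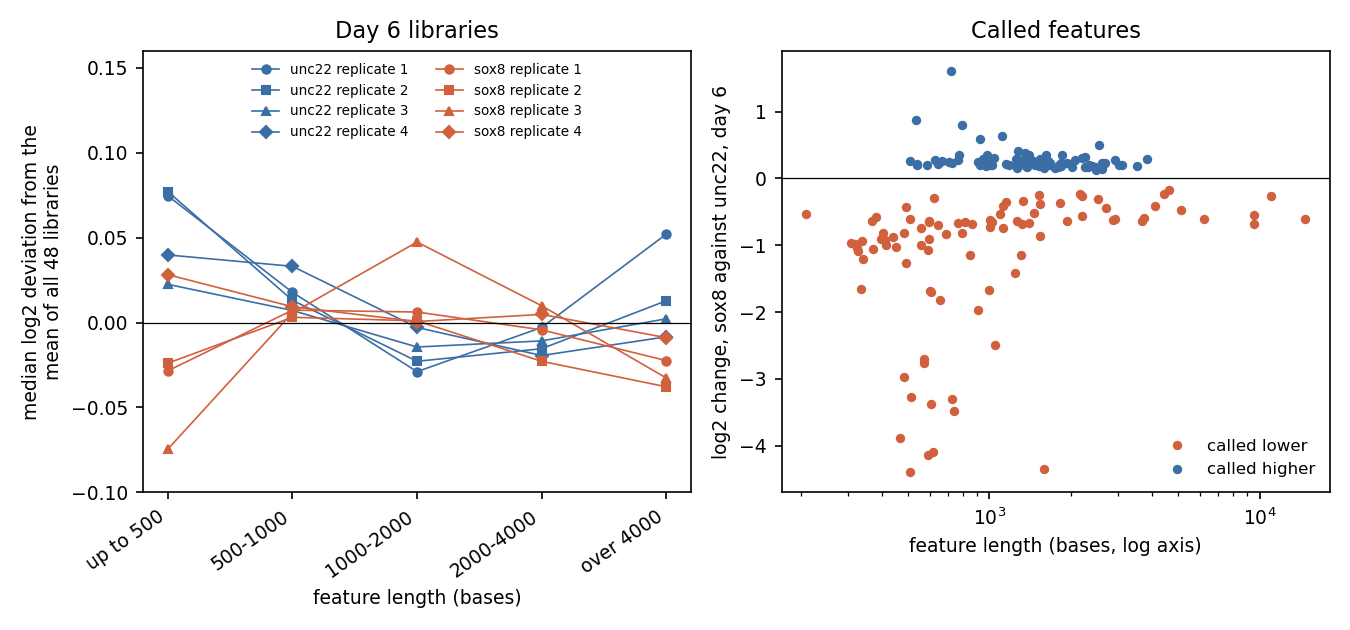
Left, median log2 deviation of each day 6 library from the mean of all 48 libraries by feature length (bases); right, log2 change of the 175 called features by length (log axis). In the shortest class sox8 replicate 3 lies lowest at -0.07 and unc22 replicates 1 and 2 highest at 0.07 and 0.08, and the blue rises all lie between 508 and 3825 bases.

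The 20 falls of at least 2-fold that were called on all 3 days were also read in the other knockdowns of day 6. Each knockdown was compared with the same 4 unc22 libraries, so these values share their control and are set side by side only. RNAi against zfp1 gave a median of -0.78 over the 20, and 9 of them were called lower, where 143 features (0.631%) were called lower in all. RNAi against pax5 gave a median of -1.19, with 13 called lower and 1 higher, where 607 (2.68%) were lower and 554 (2.44%) higher in all. The share of summed RPKM held by the 29 falls was 0.564% ± 0.0378 after zfp1 RNAi and 0.461% ± 0.00796 after pax5 RNAi (SD, n = 4 each). On day 12 its mean was 0.0552% after zfp1, 0.240% after pax5 and 0.0625% after sox8 RNAi, against 0.583% in the control. On day 18 these means were 0.0452%, 0.20% and 0.0479%, against 0.512%. The low share was therefore not particular to sox8 RNAi on the later days.

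A direct test between knockdowns uses no control library, although the sox8 libraries in it are those that chose the 20. Against zfp1, 1028 features (4.54%) were called, 686 higher (3.03%) and 342 lower (1.51%) in sox8 libraries, and with quantile normalization or cyclic loess the splits were 514 to 439 and 498 to 467. Leaving out sox8 replicate 3 or 4 gave 382 or 1760 calls, and leaving out zfp1 replicate 1, 3 or 4 gave 1949, 600 or 494. Of the 20 falls, 18 were called lower in sox8 than in zfp1 and none higher. SMED30008921 stood at 41.1 RPKM in zfp1 and 2.42 in sox8 libraries (log2 difference -3.84, SE 0.30), and SMED30024144 at 14.6 and 0.594 RPKM (-3.77, SE 0.36). SMED30002242, at 11.5 and 9.95 RPKM, and SMED30028321, at 0.687 and 0.507 RPKM, were not called different, with differences of -0.20 and -0.22. The largest differences in the other direction were SMED30023708, at 4.56 RPKM in zfp1 libraries against 18.6 in sox8 and 17.2 in unc22 libraries (1.92, SE 0.07), and SMED30030464 (1.64, SE 0.33).

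The pax5 libraries split the 20 features more widely. In all, 851 features (3.75%) were called between sox8 and pax5, 628 higher (2.77%) and 223 lower (0.984%) in sox8 libraries. Of the 20, 11 were called lower in sox8 than in pax5, 4 higher, and 5 were not called. SMED30009302 measured 328 RPKM in pax5 libraries, 379 in unc22 and 37.1 in sox8 libraries (sox8 against pax5 -3.16, SE 0.17). SMED30008505, at 33.8 RPKM in pax5 and 32.2 in unc22 libraries, differed by -2.55 (SE 0.18). SMED30002242 was called higher after pax5 RNAi (0.55 against unc22) and lower after sox8 RNAi. SMED30025741, SMED30002134 and SMED30031990 fell in both, but by less in pax5 libraries, with direct differences of -2.96, -2.89 and -2.70.

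The 4 features lower after pax5 than after sox8 RNAi were SMED30008921, SMED30035904, SMED30026114 and SMED30020396. SMED30020396 stood at 25.2 RPKM in pax5 libraries against 104 in sox8 libraries (difference 2.05, SE 0.30), and SMED30035904 at 18.7 against 55.3 RPKM (limma adjusted p = 0.000117). SMED30026114 and SMED30008921 stood at 0.907 and 0.816 RPKM in pax5 libraries, with differences of 1.31 and 1.26. SMED30024144, SMED30031649, SMED30000989, SMED30031267 and SMED30028321 fell under both and were not called different. For SMED30024144 the 95% interval of the difference was -0.20 to 1.26 and for SMED30000989 it was -0.62 to 0.25, so moderate differences either way are within the error. Among other features, SMED30030464 stood at 2.58 RPKM after pax5 RNAi, 76.6 in unc22 and 164 ± 56.0 after sox8 RNAi (SD, n = 4), a direct difference of 5.76 (SE 0.33), while sox8 against unc22, at 1.04, was not called (limma adjusted p = 0.0964). SMED30003024 stood at 15.4 RPKM after pax5 RNAi and at 167 and 166 RPKM in sox8 and unc22 libraries.

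**Figure D5:**
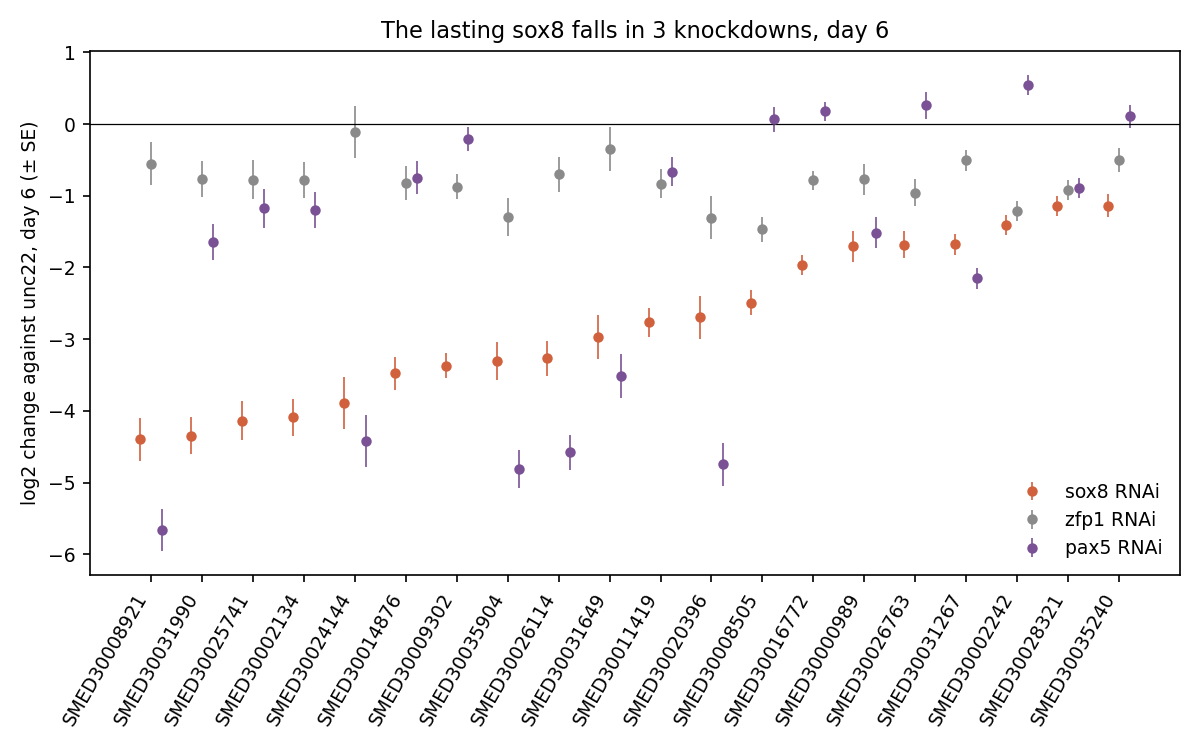
Log2 change against unc22 on day 6 (vertical axis, ± SE) of the 20 day 6 falls of at least 2-fold after sox8 RNAi that were also called on days 12 and 18, for sox8 (red), zfp1 (grey) and pax5 (purple) RNAi, 4 libraries per group and the same controls throughout. The zfp1 points lie between -1.47 and -0.12, and the pax5 points range from -5.66 for SMED30008921 to 0.55 for SMED30002242.

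The sox8 effect on day 18 differed from that on day 6 in 7 features (0.0309%), 4 more positive (0.0176%) and 3 more negative (0.0132%), while 1850 had an unadjusted p under 0.05. SMED30023556 differed by 1.52 (SE 0.30, limma adjusted p = 0.0326) and SMED30035247 by 1.35 (SE 0.23, limma adjusted p = 0.0170). The unc22 level of SMED30035247 was 1.36 RPKM on day 6 and 0.274 on day 18, and its sox8 level 0.0284 and 0.0588 RPKM. SMED30032413 differed by -1.04 and SMED30006798 by -0.59. Neither was called on day 6 (0.38 and 0.30). Single libraries moved this count. Among the day 6 libraries, leaving out sox8 replicate 1, 2 or 4 gave 4, 3 or 13 calls, and leaving out unc22 replicate 1, 2 or 4 gave 3, 2 or 15. Among those of day 18, dropping sox8 replicate 1, 2 or 4 gave 3, 1 or 0, and dropping unc22 replicate 4 gave 1.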

How the data were processed

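RNA of whole worms was sequenced by the authors, who deposited one table of RPKM values. The submitters' processing notes name edgeR, Bowtie and CASAVA 1.8.2, with no role stated. The reference, the filters, strand use and the treatment of reads aligning to several features are not given in the sources used here, so features with a near-identical copy are uncertain. Whole reads were recovered from the deposited RPKM steps for all 28413 features (100% of values whole, largest deviation 1.86e-09, tolerance 0.0001), and voom on these reads called 271 features. A library held 6894458 to 65663283 reads, with a median of 23162610. No 2 replicates on day 6 agreed within sampling noise.

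Features with a mean of at least 0.5 RPKM were tested with limma 3.58.1 in R 4.3.3 on log2(RPKM + 0.5), with 12 group means, trend and robust options, two-sided p-values and Benjamini-Hochberg adjustment within each contrast, called under 0.05. Named features were all called changes of at least 2-fold whose higher group averaged at least 1 RPKM, the 10 next largest rises and falls, the 5 called features most abundant in the control, and the 2 largest changes per direction in the other contrasts. Per-library values are given for the 12 largest falls and 3 largest rises by this rule. SMED30003024 and other features of the pax5 and zfp1 contrasts come from the last part. Values given for further features were chosen after seeing them. Members and lists were chosen with earlier results of these data known. On simulated data for the sox8 and unc22 contrast (22667 features), 28.4%, 64.2% and 92.4% of features changed 1.5-fold, 2-fold and 4-fold were recovered, and 8.21% of calls were false. The simulated reads had a fixed dispersion of 0.02 and no deviation of whole libraries with feature length. The day 6 libraries differ from that, so 8.21% cannot stand for the false share of the real calls. Sums used Python 3.11.15 with pandas 2.3.3, numpy 2.4.6 and scipy 1.17.1, and figures matplotlib 3.10.9. Alternatives changed the pseudocount, filter, normalization, model, depth and libraries.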

Additional observations from a re-analysis of the deposited data

Results flagged for a closer look

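In 10 of 102 groups of 4 libraries examined, 1 library stood apart from the other 3 by Dixon's criterion at the 95% level. For a single group of normally distributed values, chance gives about 1 in 20. The groups examined shared their libraries and held features chosen on them, so their count cannot be set against that rate. Replicate 3 of sox8 was the high library for SMED30031990 (21.9 RPKM), SMED30002134 (194 RPKM) and SMED30020396 (146 RPKM), and replicate 1 for SMED30035247 (0.114 RPKM, 1 read), SMED30021554 (1.21 RPKM) and SMED30001468 (1.54 RPKM). Replicate 2 of sox8 was the low library for SMED30001815, at 0 RPKM. Replicate 4 of unc22 was the high library for SMED30002134 (2253 RPKM), SMED30009048 (388 RPKM) and SMED30003268 (5.97 RPKM).

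Among the falls of at least 2-fold, the sox8 effect differed between day 18 and day 6 for SMED30035247, by 1.35 (limma adjusted p = 0.0170), and for SMED30023556, by 1.52 (limma adjusted p = 0.0326). In SMED30035247 the sox8 libraries were near 0 on both days.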

How the results depend on the processing

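Of the 20 falls of at least 2-fold that were called on all 3 days, 18 were called on day 6 under every alternative that gave a value. SMED30000989 was not called with only the groups compared (limma adjusted p = 0.101), nor was SMED30035240 there (0.145) or at equal depth (0.0949). Of the 7 such falls called on day 6 alone, 0 were called under every alternative, nor were any of the 10 next largest rises (1 to 10 alternatives lost) or the 10 next largest falls (1 to 13 lost). No named feature changed direction on day 6 under any of them.

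The number of features called on day 6, 175, was 99 with quantile normalization, 92 with cyclic loess, 32 with only the groups compared, 499 with library weights, 271 with voom and 40 at equal depth, and 43 to 1144 without single libraries. The 29 falls of at least 2-fold became 18 with a mean of at least 2 RPKM and 23 to 83 without single libraries. The difference between day 12 and day 6 gave 0 calls throughout. Between day 18 and day 6 the 7 calls became 4 with a mean of at least 2 RPKM, 15 with quantile normalization, 14 with cyclic loess, 16 with only the groups compared, 14 with library weights, 31 with voom, 0 at equal depth, and 0 to 15 without single libraries. Against zfp1 the 1028 calls became 71 with only the groups compared, 399 when depths were made equal and 382 to 1949 without single libraries. Against pax5 the 851 became 544 with only the groups compared, 548 when depths were made equal and 700 to 942 without single libraries. The cause of these shifts was not tested, but with only the groups compared fewer samples set the spread, and equal depth keeps fewer reads.

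Same-numbered sox8 and unc22 libraries did not deviate together (correlations 0.003, -0.021, -0.007 and -0.246). Pairs of unlike number ran from -0.179 (sox8 replicate 3 with unc22 replicate 1) to 0.271 (sox8 replicate 3 with unc22 replicate 4). These values cannot show whether same-numbered worms were handled together, and the labels do not state it, so a pairing is unknown. With the replicate block 160 features were called, 154 of the 175 among them. Depth was least in sox8 replicate 2, with 6894458 reads.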
